A study of Homo sapiens with 8 samples.

Results

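Transcript levels were compared between CAL-62 and BCPAP, a pair of established human thyroid carcinoma lines, while both were under THZ1, a covalent inhibitor of the kinase CDK7. The comparison took every library of the 2 THZ1-treated groups, 4 of the 8 libraries of the study, and the genes listed for both lines, 10698 of 12715. Both groups had received 100 nM THZ1 for 6 h, and the labels give no genetic change in either. The remaining 4 libraries, from the same lines under the vehicle DMSO, served as the background for what already told the lines apart without the drug. The labels call both lines anaplastic thyroid carcinoma, and each is a single cell line. BCPAP was grown in RPMI with 10% serum and CAL-62 in DMEM with 20% serum, and the effects of line and of medium cannot be told apart in any value below.

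CDK7 is a kinase subunit of TFIIH, one of the general transcription factors. It phosphorylates the tail of RNA polymerase II when a gene is started and also activates the kinases of the cell cycle, so that blocking it lowers new transcripts and short-lived RNAs are lost first. BCPAP is widely described as derived from a papillary carcinoma with a mutated BRAF, and CAL-62 as an anaplastic line. Anaplastic thyroid cancer is known for losing the genes of the hormone-making follicular cell.

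Reads in the genes shared by both tables ranged from 16529724 to 19765634 per library over all 8, and replicate libraries differed far beyond counting error. The leading principal component (54.9% of the variance) parted the lines, and the third (15.3%) set replicates 1 against replicates 2 in each of the 4 groups. The second (20.4%) set DMSO against THZ1 libraries, at 34.5 and 40.6 against -29.2 and -23.6 in CAL-62. In BCPAP its scores were 8.99 and 4.15 under DMSO and -7.97 and -27.4 under THZ1. The labels do not say that replicates are separate cultures. The p-values then measure nothing beyond the spread of these particular libraries, and that spread may be technical. Of the follicular cell list, 2 of 17 genes were in both tables, PAX8 and HHEX. The defining genes TG, TSHR, NKX2-1 and FOXE1 were not. Of the 17, 5 were listed for BCPAP and 2 for CAL-62, so a gene missing here may still be listed for BCPAP. HHEX was called higher in CAL-62 (1.46), a call lost in 7 of 19 alternative runs. Of the markers of other tissues, the shared genes held 0 of 12 endothelial genes, 1 of 18 blood genes (CD68), 1 of 10 fibroblast genes (COL1A1) and 3 of 16 neural and neuroendocrine genes, of which UCHL1 was called higher in CAL-62 (2.35).

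Under THZ1 the lines differed in 26.5% of the genes tested, about evenly in both directions. The widest gaps included those of the matrix proteins TGFBI, SPOCK1 and FBN1 on the BCPAP side and of the tropomyosin TPM2 and the metallothioneins MT2A and MT1G on the CAL-62 side. Of 10652 genes tested, 2818 (26.5%) passed limma's test at an adjusted p under 0.05. They comprised 1390 genes (13%) higher in CAL-62 and 1428 (13.4%) lower. Of these calls 1906 were at least 2-fold and 82 at least 8-fold, 36 of the latter higher and 46 lower in CAL-62. All values here are the authors' RPKM-type values (reads per gene length and library total) after rescaling between libraries, and every difference is CAL-62 minus BCPAP in log2(value + 1), which understates the gap of low genes. In bulk RNA, fewer cells carrying a transcript and less of it per cell cannot be told apart. The 2 libraries of one line stayed clear of those of the other in all 2818 called genes, which also held in 60.4% of all genes tested.

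The count was sensitive to the libraries used. With B1 and B2 standing for replicates 1 and 2 of THZ1-treated BCPAP, and C1 and C2 for those of THZ1-treated CAL-62, it was 923 without B1, and a fit of the 4 THZ1 libraries alone gave 1229. limma-voom on the recovered read numbers gave 2824. For the gene groups below, a count or call is followed by its value without a library wherever leaving that library out moved the count by over 1.5 times or ended the call. Higher calls were 49.3% of all calls, and 43.4%, 36.8% and 24.7% with the deposited, upper-quartile and ribosomal protein scalings. Under those scalings the median difference of all genes lay at -0.08, -0.15 and -0.32, against -0.01 in the scaling used here. A gene had to reach a mean of about 1 under DMSO to be listed for a line. The 1202 genes listed only for BCPAP and the 815 listed only for CAL-62, which may include those that are on in a single line, were therefore not tested.

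Most calls had the same sign without the drug. Of the 2818 calls, 2726 (96.7%) had the same sign between the DMSO libraries, which are separate libraries from those compared here, and 1233 (43.8%) were called there as well. The DMSO comparison called 1602 genes (15%), 738 higher in CAL-62 (6.93%) and 864 lower (8.11%), of which 77.0% were also called under THZ1. The 92 calls with the opposite sign under DMSO were 87 genes lower and 5 higher in CAL-62 under THZ1. Across the tested genes the THZ1 and DMSO line differences had r = 0.816 and rho = 0.756, as a description over genes, which are not independent replicates.

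**Figure D1:**
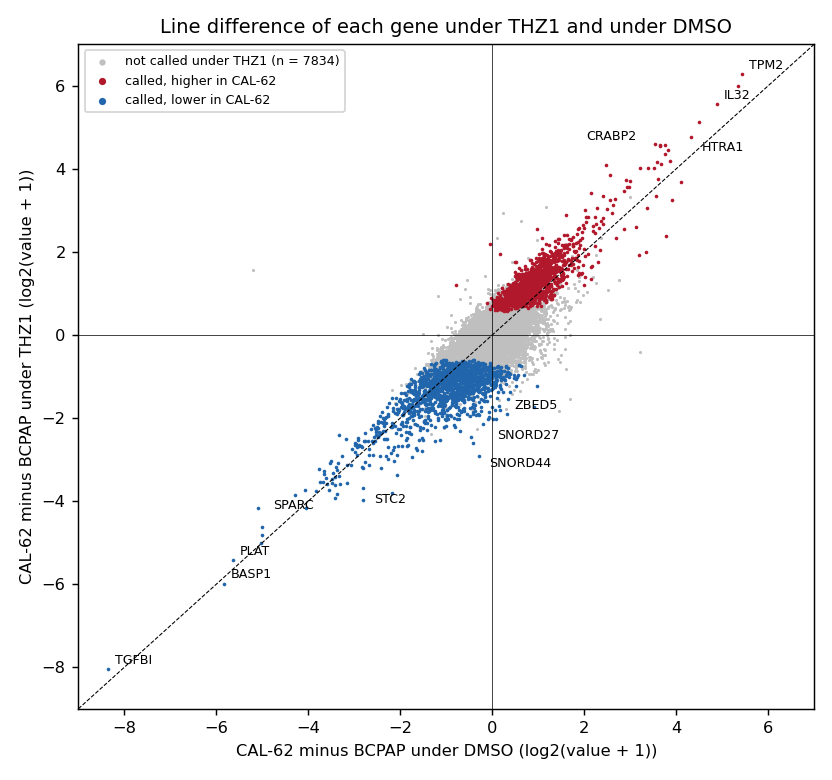
Line difference of each tested gene (CAL-62 minus BCPAP, log2(value + 1)) under DMSO on the horizontal axis and under THZ1 on the vertical axis; colours mark the 1390 higher and 1428 lower calls under THZ1 and the dashed line equal differences. TPM2 and TGFBI lie at the ends near the dashed line, whereas SNORD44 and SNORD27 lie well below it.

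The genes furthest below in CAL-62 were led by TGFBI, a secreted matrix protein induced by TGF-beta. It had 1927 and 2086 in the BCPAP libraries and 5.91 and 7.37 in the CAL-62 libraries, a 302-fold gap in the means (difference -8.04, SE 0.21, limma adjusted p = 2.87e-06). The 2 groups were far apart and each pair of replicates was close. BASP1, a membrane protein best known from nerve growth cones, had 171 and 217 against 2.70 and 1.53 (difference -5.99, limma adjusted p = 0.000172). PLAT, the tissue plasminogen activator, had 190.4 and 253 against 2.74 and 6.12 (difference -5.42, limma adjusted p = 0.000228).

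Enzymes and proteins of the extracellular matrix made up much of the rest of the 10 furthest below. LOX, which crosslinks collagen and elastin, had 123 and 264 in BCPAP and 3.77 and 5.52 in CAL-62 (difference -5.02). SPOCK1, a matrix proteoglycan, had 155 and 104 against 3.69 and 3.35 (difference -4.82). FBN1, the fibrillin of microfibrils, had 51.1 and 71.3 against 2.10 and 2.80 (difference -4.16). The rule that chose the 10 genes on each side required groups that do not overlap. The matrix glycoprotein THBS1 differed by -4.17 and the collagen-binding SPARC by -3.93, with BCPAP at 84.2 to 94.5 and 146 to 161. CKB, the brain-type creatine kinase, stood at 62.5 and 173 in BCPAP against 2.83 and 3.72 (difference -4.63), so its BCPAP libraries were themselves well apart. STC2, a secreted glycoprotein induced in stressed cells, had 112 and 134 against 3.43 and 13.1 (difference -3.97, limma adjusted p = 0.010). It is the one of the 10 that no longer passed when a library was left out, with an adjusted p of 0.0529 without B1.

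On the other side TPM2, a tropomyosin of actin filaments, had 8.57 and 7.01 in BCPAP and 712 and 637 in CAL-62, 86.6-fold higher in the means (difference 6.27, SE 0.19, limma adjusted p = 4.43e-06). STMN3, a microtubule-destabilising stathmin mostly known from neurons, had 0.544 and 2.51 against 125 and 169 (difference 5.98). IL32, a pro-inflammatory cytokine, had 3.22 and 2.58 against 192 and 171 (difference 5.55). In each the CAL-62 libraries lay within a narrow band far above both BCPAP libraries. CENPV, HTRA1, CRABP2, ARHGAP4 and GPX3 completed the non-metallothionein genes of the 10, with differences of 5.13, 4.77, 4.60, 4.57 and 4.54. HTRA1 is a secreted serine protease, CRABP2 carries retinoic acid to its nuclear receptor, and GPX3 is a secreted selenium-dependent peroxidase. CRABP2 had 1.01 and 1.55 against 47.9 and 60.5, and HTRA1 5.33 and 2.17 against 99.8 and 147. All 10 kept their call in each alternative run.

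**Figure D2:**
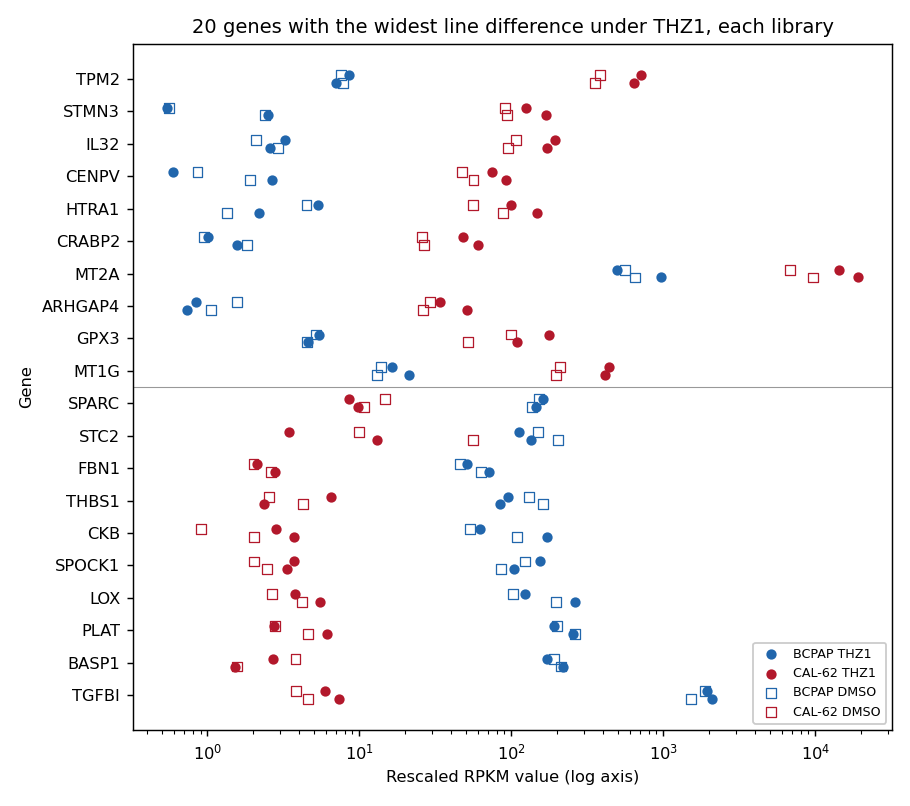
Rescaled RPKM value (log axis) of the 10 called genes furthest above (upper block) and below (lower block) in CAL-62 under THZ1, one point per library; filled circles are THZ1 and open squares DMSO libraries, blue BCPAP and red CAL-62. The choice of genes required both red circles to stand clear of both blue ones; the DMSO squares, which it did not use, lie on the same side.

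Metallothioneins, small cysteine-rich proteins that bind zinc and copper, were higher in CAL-62 in every member tested. MT2A had 496 and 964 in BCPAP and 14358 and 19084 in CAL-62, 22.9-fold higher in the means (difference 4.58, limma adjusted p = 0.000694). MT1G had 16.3 and 21.2 against 438 and 412 (difference 4.44, limma adjusted p = 4.49e-05). MT1E, at 46.6 and 82.0 against 990.3 and 1172, and MT1X, at 18.0 and 18.6 against 166 and 151, differed by 4.10 and 3.04. All 4 members tested were therefore called higher, against 13% of all genes, and all 4 had positive differences under DMSO, from 2.28 to 3.82. The copies are nearly identical, and how the authors assigned reads that match several of them is not given in the sources used here, so the split between members is uncertain.

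Metallothionein genes are switched on by the zinc sensor MTF1 through metal response elements before their start. The 250 bases before the start of 2 of these 4 genes are shown for that reason, as RefSeq gives them in GRCh38.p14 (the deposited values were made on hg19), on the plus strand, with every TGCACNC or TGCGCNC on either strand in capitals. MT1E and MT1G are named only.
MT2A upstream, chr16:56608334-56608583: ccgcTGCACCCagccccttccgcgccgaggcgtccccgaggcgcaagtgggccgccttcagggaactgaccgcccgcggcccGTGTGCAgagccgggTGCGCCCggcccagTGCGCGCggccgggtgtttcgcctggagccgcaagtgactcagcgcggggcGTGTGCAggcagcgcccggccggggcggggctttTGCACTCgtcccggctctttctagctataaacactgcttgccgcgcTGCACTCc
MT1X upstream, chr16:56682220-56682469: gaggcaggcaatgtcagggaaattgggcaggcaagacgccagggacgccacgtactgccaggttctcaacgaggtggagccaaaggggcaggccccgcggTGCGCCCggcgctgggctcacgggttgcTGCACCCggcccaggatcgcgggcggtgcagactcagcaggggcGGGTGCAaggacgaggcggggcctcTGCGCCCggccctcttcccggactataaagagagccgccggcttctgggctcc
MT2A held 7 matches and MT1X 4. Of 27305 genes with such a window, 24.7% held at least 1 match, 0.366% at least 4 and 0.033% at least 7. A match describes letters and shows no binding in these cells.

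Genes of the extracellular matrix and of cell attachment were mostly lower in CAL-62. Of 29 tested collagen, laminin and matrix genes, 17 were called lower and 3 higher, 69% of the list against 26.5% of all genes, with a median difference of -1.08 (-1.36 under DMSO) where all genes had -0.01 (0.02 under DMSO). Beside TGFBI, SPOCK1, THBS1 and FBN1, the lower calls held COL7A1 (-2.90), the collagen of anchoring fibrils, COL12A1 (-2.66), COL6A1 (-2.36), the basement membrane collagen COL4A1 (-2.27), and the laminin chains LAMA4 (-2.53) and LAMC1 (-1.11). COL1A1, the main chain of type I collagen, went the other way, with 6.25 and 7.56 in BCPAP against 62.2 and 33.5 in CAL-62 (difference 2.57, limma adjusted p = 0.00214). FBLN1 (1.78) was also called higher. Integrins, the receptors for this matrix, had 6 lower and 0 higher calls among 10, 60% of the list against 26.5% of all genes. The lower calls were led by the collagen receptor chain ITGA2 (-2.41) and the fibronectin receptor chain ITGA5 (-2.36). The call was lost for ITGA2 without B1 or C1 (adjusted p = 0.0982 to 0.148). For integrins the lower count was 2 without B1, 3 without B2.

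Regulators and products of the mesenchymal state split. Among 20 tested, 11 were lower and 4 higher in CAL-62, 75% of the list against 26.5% of all genes, with a median of -0.92. The ribosomal protein scaling gave 2 higher and 9 lower. Fibronectin, FN1, was the gene with the most reads in both THZ1-treated BCPAP libraries, at 2718 and 2538 against 259 and 459.7 in CAL-62 (difference -2.92, limma adjusted p = 0.00291). Vimentin, VIM, had 2427 and 2374 against 1282 and 855 (difference -1.20, limma adjusted p = 0.029), high in both lines but without overlap. The transcription factors SNAI2 (-3.38) and FOXC2 (-3.70) were lower in CAL-62, whereas SNAI1 (1.81) and TWIST2 (1.65) were higher. The smooth-muscle type cytoskeletal genes TAGLN (3.72) and CALD1 (1.92) were also higher, on the side of TPM2. The test was not passed by VIM without B1, B2, C2 or either DMSO-treated BCPAP library (adjusted p = 0.053 to 0.163), and TWIST2 without B1 or C2 (adjusted p = 0.102 to 0.152). The number called lower was 7 without B1 or B2. 

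In the TGF-beta list, 11 of 28 were lower and none was higher (39.3% of the list against 26.5% of all genes, median -0.87), including FSTL3 (-3.76), INHBA (-2.68), the receptor TGFBR2 (-1.37) and the signal carrier SMAD3 (-1.29). FSTL3, a secreted binder of activin, had 47.0 and 53.3 in BCPAP against 2.54 and 2.99 in CAL-62 (limma adjusted p = 0.000228). INHBA encodes the activin chain itself. Left uncalled were INHBA without B1 (adjusted p = 0.0599), TGFBR2 without B1 or C2 (adjusted p = 0.0675 to 0.11), and SMAD3 without B1 or C2 (adjusted p = 0.0598 to 0.105). Lower calls numbered 3 without B1. Its median moved to -0.57 without B1. Under the ribosomal protein scaling 0 passed as higher and 7 as lower.

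Epithelial genes were mixed, with 4 higher and 5 lower calls of 17 (52.9% of the list against 26.5% of all genes, median -0.28). The list median became 0.06 without B2, 0.10 without C1. The simple-epithelium keratins KRT8, at 306 and 542 against 822 and 973, and KRT18, at 208 and 339 against 726 and 691, were higher in CAL-62 (differences 1.13 and 1.41). CLDN3 (1.83), a protein of the tight junction, was higher too. The envoplakin gene EVPL (-3.46), the keratin gene KRT80 (-3.18), the cadherin gene DSG2 (-1.39), CLDN1 (-1.38) and CLDN4 (-0.88) were lower. Calls ended for KRT8 without B1, C1, C2, replicate 1 of DMSO-treated BCPAP or either DMSO-treated CAL-62 library (adjusted p = 0.051 to 0.129), CLDN3 without B1 (adjusted p = 0.0639), DSG2 without B1 or C2 (adjusted p = 0.0898 to 0.121), CLDN1 without B1 (adjusted p = 0.05), and CLDN4 without any single THZ1 library or either DMSO-treated BCPAP library (adjusted p = 0.0535 to 0.109). The count of higher genes was 2 without B1 and the count of lower genes was 2 without B1, 3 without C2.

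Secreted proteases and their inhibitors divided evenly, with 5 higher and 6 lower of 22, 50% of the list against 26.5% of all genes. PLAU (1.44), the urokinase-type activator, was higher in CAL-62 while PLAT (-5.42) was lower, and SERPINE2 (-3.08), an inhibitor of both, was lower as well. HTRA1, ADAM15 (0.91) and the intracellular inhibitors SERPINB1 (1.91) and SERPINB6 (1.04) were the other higher calls. No longer called was ADAM15 without B1, C1, C2 or any single DMSO library (adjusted p = 0.0519 to 0.155).

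Of 30 interferon-response genes tested, 12 were called lower in CAL-62 and 1, BST2 (1.48), higher, with a median of -0.89 (-0.73 under DMSO). The calls made up 43.3% of the list against 26.5% of all genes. The ribosomal protein scaling gave 1 higher and 8 lower. The calls included the signal carriers STAT2 (-1.02) and IRF9 (-2.11), parts of the factor that interferon activates, and the effector IFI6 (-2.62). IFI44, at 71.6 and 39.2 against 2.31 and 6.39, led them (difference -3.45, limma adjusted p = 0.00898). The call was lost for STAT2 without B1 (adjusted p = 0.0878), and IFI44 without B1 (adjusted p = 0.0618). The higher count was 2 without C1 and the lower count was 5 without B1.

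In the NF-kB and cytokine list 4 were higher and 3 lower of 26, 26.9% of the list against 26.5% of all genes and so near that background. Under the ribosomal protein scaling 2 passed as higher and 1 as lower. The adhesion receptor ICAM1 (1.21), the chemokine CXCL16 (1.55), NFKB1 (0.92) and IL32 were higher. The chemokine IL8 (-3.03), NFKB2 (-0.94) and the inhibitor NFKBIE (-0.91) were lower. The test was not passed by ICAM1 without B1, B2 or C2 (adjusted p = 0.0601 to 0.0946), NFKB1 without B1, B2 or C1 (adjusted p = 0.0565 to 0.0778), IL8 without any single THZ1 library or replicate 1 of DMSO-treated BCPAP (adjusted p = 0.0501 to 0.214), NFKB2 without B1, B2, C1 or any single DMSO library (adjusted p = 0.0789 to 0.153), and NFKBIE without B1, B2 or C2 (adjusted p = 0.0623 to 0.0919). The number called higher was 2 without B1 or B2 and the number called lower was 0 without B1 or B2, 1 without replicate 1 of DMSO-treated BCPAP.

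Of 35 genes of glycolysis and the hypoxia response, 13 were lower in CAL-62 and 2 higher, with a median of -0.71 (-0.94 under DMSO), 42.9% of the list against 26.5% of all genes. SLC16A3, which exports lactate, had 118 and 209.7 in BCPAP against 7.03 and 21.9 (difference -3.55, limma adjusted p = 0.00502). The glucose transporter SLC2A1 (-1.96), the hexokinase HK2 (-2.50), the regulator PFKFB4 (-2.45), PDK1 (-2.02), which holds pyruvate back from mitochondria, and HIF1A (-1.55), the oxygen-regulated factor itself, were all lower. BNIP3, which marks mitochondria for removal in low oxygen, had 256 and 316 against 54.4 and 45.0 (difference -2.50, limma adjusted p = 0.000694). ADM, a vasodilator peptide also induced by hypoxia, ran the other way, at 0.994 and 2.08 against 45.2 and 21.0 (difference 3.68, limma adjusted p = 0.00404), as did the glycolytic isomerase GPI (1.06). Left uncalled was GPI without B1 or C1 (adjusted p = 0.0621 to 0.0766). Higher calls numbered 1 without B1 or C1, 4 without B2.

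Nuclear genes of the mitochondrial respiratory chain had the largest count on the CAL-62 side among the 42 lists, and theirs was one of the longest lists. Of 75 tested, 30 were called higher and 1, NDUFS5 (-0.80), lower, 41.3% of the list against 26.5% of all genes. A positive difference was seen in 67. Their median was 0.76 under THZ1 and 0.15 under DMSO, where 9 were called higher and 4 lower. The median was 0.39 without B1. The called genes spanned complex I (NDUFA6, 1.96), complex III (CYC1, 1.88), complex IV (COX6C, 1.71) and ATP synthase (ATP5J2, 1.30). NDUFA6 had 8.76 and 12.8 in BCPAP and 41.8 and 46.6 in CAL-62 (adjusted p = 0.00208 by limma), and CYC1 had 71.9 and 141 against 318 and 438 (adjusted p = 0.00952 by limma). In both the CAL-62 libraries stood clear of the BCPAP ones. With the ribosomal protein scaling 12 were higher and 3 lower, and the median was 0.40. A call ended for NDUFS5 without B2, C1, C2 or either DMSO-treated BCPAP library (adjusted p = 0.0517 to 0.0773). The count of higher genes was 13 without B1, 19 without C1 and the count of lower genes was 2 without B1.

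The 13 protein genes encoded by mitochondrial DNA all had positive differences (median 1.09, and 0.46 under DMSO), as had 5268 of the 10652 genes tested. The median of these 13 moved to 0.72 without B2, 0.45 without C1, 1.79 without C2. Only COX3, a subunit of complex IV, passed the test, with 4669 and 4154 against 13756 and 9198 (difference 1.35, limma adjusted p = 0.0375). That is 7.69% of the 13, below the 26.5% of all genes called. No mitochondrial gene passed with the deposited, upper-quartile or ribosomal protein scaling. No longer called was COX3 without any single library (adjusted p = 0.0613 to 0.193). Mitochondrial transcripts took 10.4% and 5.51% of reads in the THZ1-treated CAL-62 libraries and 5.21% and 3.46% in the BCPAP ones, and their part in the other differences was not tested.

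Lipid synthesis genes had 14 higher and 2 lower calls among 37 (43.2% of the list against 26.5% of all genes, median 0.70, and 0.53 under DMSO). The ribosomal protein scaling gave 5 higher and 3 lower. FADS2, a fatty acid desaturase, had 2.83 and 3.43 in BCPAP against 40.1 and 56.3 (difference 3.56, limma adjusted p = 0.000247). FDFT1, squalene synthase at the branch to cholesterol, had 16.4 and 16.2 against 61.2 and 95.6 (difference 2.16, limma adjusted p = 0.00482). The factor SREBF2 (1.60) that drives this pathway and the enzymes NSDHL (1.40) and FADS3 (1.49) were higher, while INSIG2 (-1.31), a brake on the pathway, was lower. The call was lost for SREBF2 without B1 or C2 (adjusted p = 0.062 to 0.0882), FADS3 without B1 (adjusted p = 0.0649), and INSIG2 without B1 (adjusted p = 0.0656). The higher count was 3 without B1, 6 without C2 and the lower count was 0 without B1, 1 without B2 or C1.

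In the amino acid and unfolded protein list (8 higher and 4 lower of 37, 32.4% of the list against 26.5% of all genes, median 0.08), the transporter pair SLC7A5 (3.05) and SLC3A2 (1.67) and the serine synthesis enzymes PSAT1 (1.64) and PSPH (1.55) were higher. The remaining higher calls were SHMT2, CRELD2, DNAJB11 (0.80) and EDEM1 (0.74). STC2, the lipoprotein receptor VLDLR (-2.72), SEL1L (-1.76), which serves the disposal of misfolded proteins, and XBP1 (-1.74), a factor of the unfolded protein response, were lower. Unfolded protein genes were thus called both ways, as CRELD2, DNAJB11 and EDEM1 belong to that part of the list too. The call ended for SHMT2 without B1 or C2, DNAJB11 without B1, B2, C2 or any single DMSO library, and EDEM1 without any single library. The median of this list was -0.08 and -0.28 with the upper-quartile and ribosomal protein scalings. Under the ribosomal protein scaling 1 passed as higher and 4 as lower. The list median became 0.14 without B2, -0.14 without C1, 0.16 without C2. The test was not passed by SLC3A2 without B1, B2 or C2 (adjusted p = 0.0778 to 0.122), PSPH without B1 or B2 (adjusted p = 0.0519 to 0.0522), STC2 without B1 (adjusted p = 0.0529), and XBP1 without B1 or C2 (adjusted p = 0.0853 to 0.118). The number called higher was 3 without B1, 4 without B2 or C2 and the number called lower was 2 without B1.

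**Figure D3:**
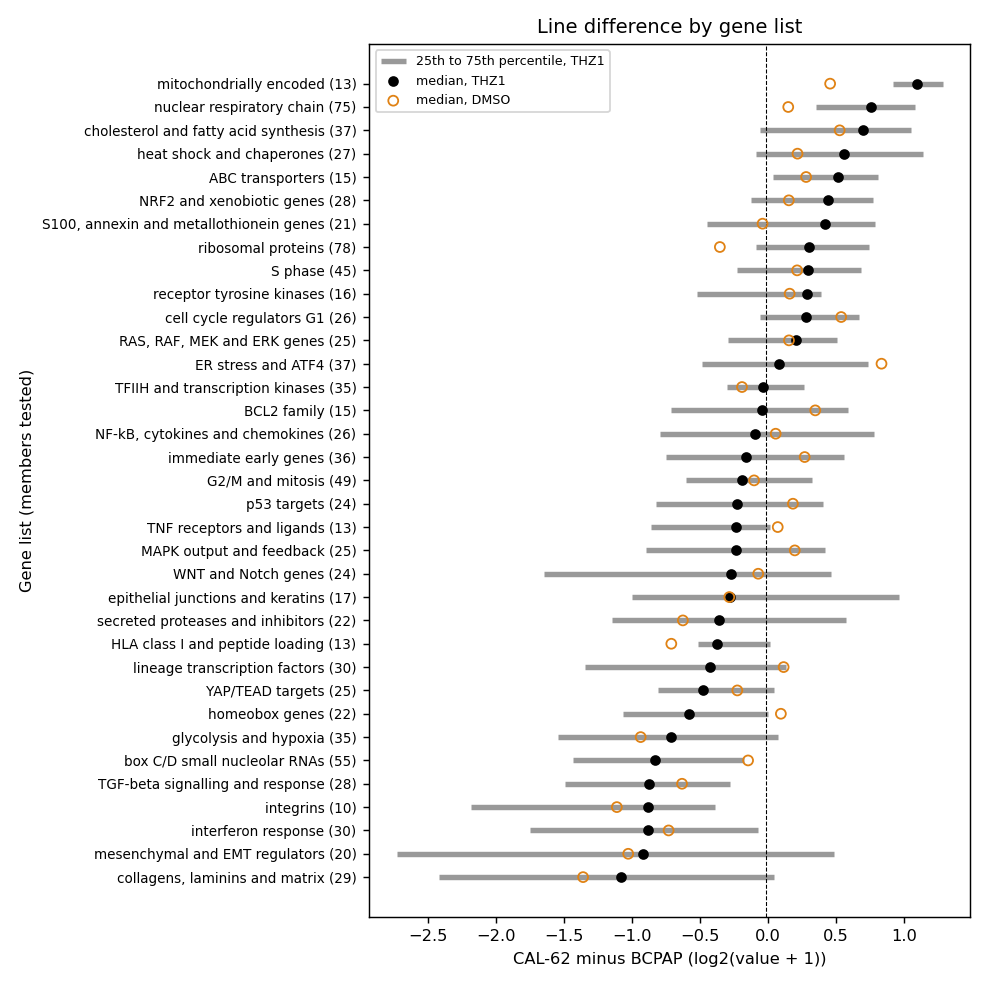
Line difference (CAL-62 minus BCPAP, log2(value + 1)) for each gene list with at least 10 tested members; black points are medians under THZ1 with grey bars from the 25th to the 75th percentile of members, open circles medians under DMSO, and the dashed line the median of all genes. Matrix genes lie at -1.08 and mitochondrially encoded genes at 1.09, a value that was 0.45 without C1 and 1.79 without C2.

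Of 45 S phase genes, 11 were higher and 4 lower (33.3% of the list against 26.5% of all genes, median 0.30). With the ribosomal protein scaling 1 was higher and 2 lower, and the median was -0.03. MCM2, part of the helicase that opens the origin, had 53.5 and 59.4 against 181 and 160.3 (difference 1.58, limma adjusted p = 0.00208). MCM5 and MCM7 of the same helicase were also higher, by 1.07 and 1.23. ORC2 (-1.53) of the origin recognition complex, the primase PRIM1 (-1.49), the kinase CDC7 (-1.10) and RFC1 (-1.05) of the clamp loader were lower. Left uncalled were MCM5 without B1 (adjusted p = 0.069), PRIM1 without B1 (adjusted p = 0.0542), CDC7 without B1, C2 or any single DMSO library (adjusted p = 0.0536 to 0.174), and RFC1 without B1 or C2 (adjusted p = 0.0687 to 0.109). Higher calls numbered 5 without B1, 7 without C2 and lower calls numbered 1 without B1, 2 without C2.

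Of 26 regulators of G1, 4 were higher and none lower. That is 15.4% of the list, below the 26.5% of all genes called and near the 13% called higher. The 4 were CCND3 (1.39), TFDP1 (1.21), CDK4 (1.17) and E2F4 (1.08), and none of them was called with the ribosomal protein scaling. A call ended for E2F4 without B1 (adjusted p = 0.0589). In the list of 49 mitotic genes, 5 were higher and 4 lower (18.4% of the list against 26.5% of all genes), below that background. The balance turned to 3 higher and 5 lower with the deposited scaling, 3 and 9 with the upper-quartile scaling and 0 and 2 with the ribosomal protein scaling. The higher calls held the mitotic transcription factor FOXM1, at 46.0 and 48.7 against 143 and 137 (difference 1.55, limma adjusted p = 0.00243), which did not pass with the ribosomal protein scaling (adjusted p = 0.0529). MYBL2 (1.16), PRC1 (1.13), CKS1B (1.08) and NUSAP1 (0.98) were the other higher calls, and TTK (-1.59) of the spindle checkpoint, PLK4 (-1.17), CCNA2 (-1.10) and KIF2C (-0.93) were lower. No longer called were MYBL2 without B1 or C2 (adjusted p = 0.069 to 0.0859), PRC1 without B1 (adjusted p = 0.0618), CKS1B without B1, B2, C1 or either DMSO-treated BCPAP library (adjusted p = 0.0561 to 0.144), NUSAP1 without B1, B2, C1 or either DMSO-treated BCPAP library (adjusted p = 0.0666 to 0.166), TTK without B1 (adjusted p = 0.0555), PLK4 without B1, C2 or any single DMSO library (adjusted p = 0.053 to 0.211), CCNA2 without B1 (adjusted p = 0.0898), and KIF2C without B1 (adjusted p = 0.0513). The count of higher genes was 1 without B1, 3 without B2 or either DMSO-treated BCPAP library and the count of lower genes was 0 without B1.

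Ribosomal protein genes had 10 higher and 0 lower calls of 78, 12.8% of them, near the 13% of all genes, with a median of 0.30 under THZ1 and -0.35 under DMSO. The median was -0.02 without B1, 0.73 without B2, 0.47 without C1, 0.16 without C2. Under the scaling on these genes themselves the median was -0.07, close to 0 by construction, with 2 higher and 4 lower. The higher count was 0 without B1 or C2, 2 without C1, 4 without replicate 1 of DMSO-treated BCPAP, 5 without replicate 2 of DMSO-treated BCPAP, 20 without B2.

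Heat shock genes had 8 higher and 4 lower of 27 (44.4% of the list against 26.5% of all genes), with HSPB1, a small chaperone, at 133 and 255 against 834 and 829 (difference 2.17, limma adjusted p = 0.00465) and HSPA2 higher by 2.49. DNAJB4 (-1.91), CCT5 (-0.84), HSPA13 (-0.74) and HSPB11 (-0.61) were lower. The call was lost for DNAJB4 without B1 or C2 (adjusted p = 0.0592 to 0.124), CCT5 without B1, B2, C2 or either DMSO-treated BCPAP library (adjusted p = 0.053 to 0.137), HSPA13 without B1, C1, C2 or any single DMSO library (adjusted p = 0.0548 to 0.162), and HSPB11 without any single library (adjusted p = 0.0655 to 0.124). The number called higher was 4 without B1, B2 or C1 and the number called lower was 0 without B1 or C2, 1 without either DMSO-treated BCPAP library, 2 without B2 or either DMSO-treated CAL-62 library. The ribosomal protein scaling gave 2 higher and 0 lower.

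Of 25 genes of MAPK output and feedback, 4 were lower and 1 higher, 20% of the list against 26.5% of all genes and so below that background. The lower calls were led by the phosphatase DUSP4 (-3.0), which switches ERK off. The growth factor TGFA (1.18) was higher, and DUSP1 (-2.54), SPRY1 (-1.18) and ETV1 (-0.72) were lower. The test was not passed by TGFA without B1, B2 or C1 (adjusted p = 0.0668 to 0.117), DUSP1 without any single THZ1 library or either DMSO-treated BCPAP library (adjusted p = 0.0622 to 0.182), SPRY1 without B1 (adjusted p = 0.0589), and ETV1 without any single library (adjusted p = 0.0629 to 0.145). Higher calls numbered 3 without either DMSO-treated CAL-62 library and lower calls numbered 1 without B1, 2 without B2, C2 or either DMSO-treated BCPAP library. In the RAS and RAF list 2 were higher and 2 lower of 25, 16% of the list against 26.5% of all genes and so below that background. Under the ribosomal protein scaling 0 passed as higher and 2 as lower. RASA1, which turns RAS off, was lower, at 52.7 and 47.3 against 16.3 and 11.3 (difference -1.81, limma adjusted p = 0.00286). PEBP1 (0.94), an inhibitor of the kinase cascade below RAS, was higher and SOS2 (-0.95), an activator of RAS, was lower. Left uncalled were PEBP1 without B1, C1, C2 or either DMSO-treated CAL-62 library (adjusted p = 0.0531 to 0.125), and SOS2 without B1, C1, C2 or any single DMSO library (adjusted p = 0.0527 to 0.207). The count of higher genes was 1 without B1, C2 or either DMSO-treated CAL-62 library, 4 without B2 and the count of lower genes was 1 without B1, C2 or any single DMSO library.

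Of 24 WNT and Notch genes, 9 were lower and 2 higher, 45.8% of the list against 26.5% of all genes. The secreted WNT inhibitor DKK3 had 141 and 189 against 13.2 and 25.5 (difference -3.09, limma adjusted p = 0.00168), the receptor genes FZD8, FZD1 and FZD7 differed by -2.27, -1.78 and -1.62, and NOTCH2 and its ligand JAG1 by -1.74 and -2.22. LRP5 (2.0), a WNT co-receptor, and NRARP (2.13), a Notch target, were higher. Calls ended for FZD7 without B2 or C2 (adjusted p = 0.0527 to 0.0635), and JAG1 without B1, B2 or C2 (adjusted p = 0.0508 to 0.195).

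Of 30 transcription factors of the forkhead, SOX, GATA and RUNX list, 9 were lower and 3 higher in CAL-62 (40% of the list against 26.5% of all genes, median -0.43, and 0.11 under DMSO). Its median moved to -0.26 without B1. The ribosomal protein scaling gave 1 higher and 8 lower. FOXP1 (-3.06), SOX4 (-2.37), SOX9 (-2.0), GATA3 (-1.81) and RUNX1 (-1.35) were lower and SOX7 (3.25), FOXM1 and GATA2 (1.11) higher. No longer called were GATA3 without B1 (adjusted p = 0.0602), RUNX1 without B1 (adjusted p = 0.0703), and GATA2 without any single THZ1 library (adjusted p = 0.0522 to 0.119). The lower count was 5 without B1. Among homeobox genes, 5 of 22 were lower and 2 higher (31.8% of the list against 26.5% of all genes, median -0.58, and 0.09 under DMSO). Under the ribosomal protein scaling 1 passed as higher and 4 as lower. HOXB3 (-1.48), HOXD1 (-1.27) and MEIS2 (-1.11) were among the lower calls, and HOXB9 (1.63) and MSX1 (1.35) higher. The call was lost for HOXB3 without B2 (adjusted p = 0.0554), HOXD1 without B2, C1 or C2 (adjusted p = 0.0582 to 0.104), MEIS2 without B1 or C2 (adjusted p = 0.0683 to 0.119), HOXB9 without B1 (adjusted p = 0.0516), and MSX1 without B1 (adjusted p = 0.0591). The number called higher was 0 without B1 and the number called lower was 2 without C2, 3 without B1.

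Of 8 genes close to the drug or to the study's interest, 1 passed the test, 12.5% of them against 26.5% of all genes and so below that background. CDK7 had 21.4 and 18.4 in BCPAP and 10.4 and 10.1 in CAL-62 (difference -0.89, SE 0.20, limma adjusted p = 0.0167), with no overlap and a difference of -0.73 under DMSO. It did not pass without B1 (adjusted p = 0.0953), in the 4 THZ1 libraries alone or with the ribosomal protein scaling. CDK12 and CDK13, elongation kinases that THZ1 also binds, differed by 0.06 and -0.28 and did not pass (limma adjusted p = 0.884 and 0.570). MYC had 23.1 and 22 in BCPAP and 83.5 and 26.7 in CAL-62 (difference 1.04, SE 0.63, limma adjusted p = 0.247). Replicate 1 of CAL-62 was about as far from replicate 2 as from BCPAP, so no gap beyond the replicate spread was seen. PAX8, the thyroid lineage factor, had 29.7 and 41.3 against 5.19 and 31.2 (difference -1.35, SE 0.66, limma adjusted p = 0.160), and passed without C2 (difference -2.54, adjusted p = 0.0092) and with the replicate number as a block, shared by both lines (0.0372) or within each line (0.0375). SMG9, a factor of nonsense-mediated decay, had 14.9 and 15.6 against 5.69 and 18.6 and passed without C2 alone of the alternatives (difference -1.28, adjusted p = 0.0143). KLF2 (-0.61) and PPP1R15A (0.36) did not pass (limma adjusted p = 0.284 and 0.618).

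Whether the line difference changed between DMSO and THZ1 was tested gene by gene, as the THZ1 line difference minus the DMSO line difference. This signed value does not tell by itself whether the lines became more or less alike. No gene passed (0 of 10652, 0%, smallest limma adjusted p = 0.775), and voom also called 0. The unadjusted p was under 0.05 in 578 genes (5.43%), and in 1893 and 2484 with the replicate number as a block shared by both lines or within each line, where again no gene passed after adjustment. With a pseudocount of 0.1 in place of 1, a single gene passed, SNORD44 (adjusted p = 0.0138). The genes described next are among those with a small p and are given as values without a call. In 347 genes (3.26%) the 2 lines lay without overlap in opposite orders under THZ1 and under DMSO, 223 of them lower in CAL-62 under THZ1 and 124 higher.

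Among the small nucleolar RNAs of the box C/D list, calls fell on the side lower in CAL-62. Box C/D RNAs guide the methylation of ribosomal RNA and most are cut out of the introns of host genes. Of 55 tested, 11 (20%, against 13.4% of all genes) were lower in CAL-62 and none higher, with medians of -0.83 under THZ1 and -0.15 under DMSO. The THZ1 median was -0.35 within replicate 1 and -1.15 within replicate 2. The list median became -1.33 without C1, -0.36 without C2. Higher calls numbered 2 without C2 and lower calls numbered 5 without B1, 20 without C1. Libraries were made after poly(A) selection, although these RNAs lack such a tail, each rested on few reads, and whether counting used strand is not given in the sources used here. Reads of an unspliced host and theirs cannot be told apart.

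SNORD44 had 9 and 6 reads in the THZ1-treated BCPAP libraries and 0 in both CAL-62 ones, against 25 and 20 and 19 and 21 under DMSO. Set against a floor of 3 reads per library, it was at least 1.92-fold lower in CAL-62 under THZ1. SNORD27 had 8 and 12 reads against 1 and 1 (difference -2.15, limma adjusted p = 0.00208). Their host genes, chosen after the values were seen, did not pass under THZ1, with differences of -0.30 for GAS5 and 0.20 for SNHG1 (limma adjusted p = 0.502 and 0.75). SNORD27, which has a unique GENCODE 29 entry, is shown as the feature these few reads fell on, with box C (TGATGA, in the first 20 bases) and box D (CTGA, in the last 15) in capitals, in GRCh38. Both boxes were found on the given strand in 66.9% of 275 such RNAs. SNORD44 is named only.
SNORD27, chr11:62855012-62855083, minus strand: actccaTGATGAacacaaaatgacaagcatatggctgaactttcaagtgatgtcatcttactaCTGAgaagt
The opposite order was seen in SNORD116-4, of an imprinted cluster, which was not in the box C/D list and was called higher in CAL-62. It had 9 and 8 reads in BCPAP and 44 and 41 in CAL-62 under THZ1 (difference 2.33, limma adjusted p = 0.00153, and 1.09 under DMSO).

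Among genes read at higher depth, MEPCE, which caps the 7SK RNA that holds the elongation kinase P-TEFb inactive, had the lines in opposite orders in the 2 conditions. Under DMSO it had 21.8 and 18.7 in BCPAP and 48.5 and 47.0 in CAL-62, and under THZ1 20.1 and 14.6 against 10.9 and 10.4. The lines did not overlap in either condition, with the difference at 1.20 under DMSO and -0.64 under THZ1 (limma adjusted p = 0.0606). It passed without B2 (adjusted p = 0.0469), with the deposited (0.0487) and upper-quartile (0.0365) scalings, and with a replicate block shared by both lines (0.0136) or within each line (0.00989). ZBED5, a gene derived from a transposon, had 9.89 and 5.12 against 1.48 and 0.899 under THZ1 (difference -1.91, limma adjusted p = 0.00695), where the DMSO difference was 0.33. OGDH, a subunit of the mitochondrial oxoglutarate dehydrogenase, had the larger difference under THZ1 on the CAL-62 side, at 8.63 and 9.37 against 32.6 and 32.2 under THZ1 (difference 1.74, limma adjusted p = 0.0018) and 0.49 under DMSO. TNFRSF1A, the main receptor for TNF, had 37.7 and 39.6 against 7.93 and 11 (difference -1.93, limma adjusted p = 0.00311), with -0.29 under DMSO. RPL38 differed by -0.10 under THZ1 and -1.11 under DMSO.

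**Figure D4:**
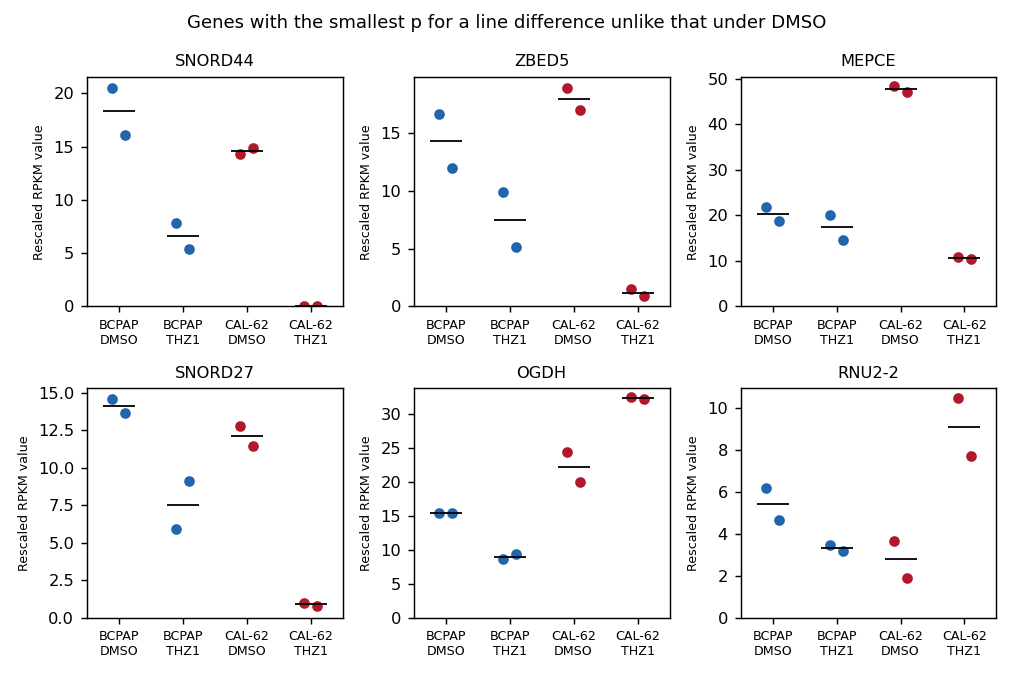
Rescaled RPKM value of 6 genes picked from those with a small p for a line difference under THZ1 unlike that under DMSO, one point per library with the group mean as a bar, blue BCPAP and red CAL-62. LOC100509100, with a smaller p than ZBED5 and RNU2-2, is not shown. SNORD44 is at 0 in both THZ1-treated CAL-62 libraries, MEPCE, ZBED5 and RNU2-2 have the lines in opposite orders in the 2 conditions, and none passed the test.

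Line differences also varied by chromosome, a property the choice of groups did not use. Of the tested genes 10185 (95.6%) could be placed by name in the GRCh38.p14 gene table. Chromosome 22 had the highest median difference, 0.68 over 238 genes, with 88 called higher (37.0%, against 13% of all genes) and 9 lower (3.78%, against 13.4%). Chromosomes 9 (0.56) and 16 (0.48) followed. Chromosome 1 had the lowest, -0.47 over 1046 genes, with 285 called lower (27.2%) and 48 higher (4.59%), next to chromosomes 5 (-0.41) and 4 (-0.40). The DMSO medians were 0.58, 0.56, 0.48, -0.40, -0.40 and -0.31 for the same 6 chromosomes, and the medians within replicate 1 and within replicate 2 had the same sign in each of them.

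Smaller neighbourhoods stood out within chromosomes. In 192 runs of 50 tested genes in genome order, 20 had a median of at least 0.5 and 27 of at most -0.5, and the run medians under THZ1 and under DMSO had r = 0.930, as a description over runs. The lowest were the run from ZRANB2 to GLMN on chromosome 1 (median -1.17, 28 lower and 1 higher) and that from SPTLC2 to YY1 on chromosome 14 (-1.15, 35 lower and 0 higher). Of all genes tested, 13.4% were called lower and 13% higher. The highest was the run from POLR3K to NDUFB10 on chromosome 16, with a median of 0.97. Of the 10 genes furthest below in CAL-62, 6 lie on chromosome 5 (TGFBI, BASP1, LOX, SPOCK1, STC2 and SPARC), as does CDK7. Chromosome 5 holds 472 of the 10185 placed genes. DNA copy number was not measured in these libraries, and its part in these values was not tested.

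**Figure D5:**
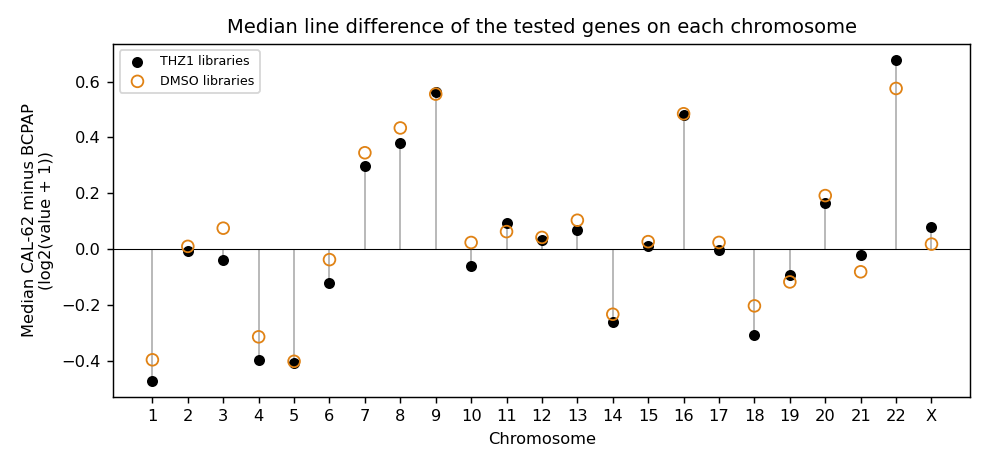
Median line difference (CAL-62 minus BCPAP, log2(value + 1)) of the tested genes on each chromosome, black points for the THZ1 and open circles for the DMSO libraries. The 2 sets of libraries give nearly the same profile, from -0.47 on chromosome 1 to 0.68 on chromosome 22 under THZ1.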

How the data were processed

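The authors deposited 1 RPKM-type value per gene and library, with no counts; the unit was inferred from the values. Per the submitters' processing notes, the authors used Bowtie2, DESeq2 and hg19; their roles and versions, the annotation and the strand setting are not stated in those notes. Whole read numbers were recovered for all 10698 genes within 0.02 reads. The main fit did not use them: values were rescaled by 1 median-of-ratios factor per library and fitted with limma 3.58.1 (R 4.3.3, trend, 4 group means over 8 libraries) on log2(value + 1) for genes with a mean of at least 1, after a check on simulated data. Tests are two-sided, with Benjamini-Hochberg adjustment over all genes tested. Named genes are the 10 furthest in each direction (mean of at least 5, no overlap), the top 2 called members of each of 42 lists, the 5 smallest p-values in each direction for the difference from DMSO, and the study's genes; other members were named after their values were seen. Some genes and a sequence are not reported here. The groups and lists were chosen with earlier results of these data known.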

Additional observations from a re-analysis of the deposited data

Results flagged for a closer look

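Named genes, some of which were chosen for a small p for this difference, numbered 98. In 4 of them the 2 lines lay in opposite orders under THZ1 and under DMSO with no overlap in either condition. That order is what singled these 4 out, but it was also seen in 347 (3.26%) of all genes tested. The line difference under THZ1 minus that under DMSO was -2.24 for ZBED5, -2.20 for the uncharacterised LOC100509100 and -1.85 for MEPCE, and 2.0 for RNU2-2, a copy of the spliceosomal U2 RNA. The difference itself was tested and did not pass for any of them (limma adjusted p = 0.775 each, unadjusted p = 0.00136, 0.000201, 0.000321 and 0.00157). LOC100509100 had a THZ1 line difference of -1.23 and a DMSO difference of 0.97. RNU2-2 had 1.21 and -0.79, and its call under THZ1 was lost without replicate 1 or 2 of THZ1-treated BCPAP (adjusted p = 0.0905 and 0.0805), without replicate 1 of THZ1-treated CAL-62 (0.0744), in the 4 THZ1 libraries alone, in voom and with the ribosomal protein scaling.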

How the results depend on the processing

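The count of 2818 calls under THZ1 was 1114 with the ribosomal protein scaling and 1229 in the 4 THZ1 libraries alone. It ran from 923 to 2502 when 1 library was left out, where a lone library was assumed to vary like the others. The 1602 calls under DMSO became 938 with the ribosomal protein scaling and ran from 275 to 2028 with 1 library left out. For the difference between conditions, the count of 0 held in each alternative except the pseudocount of 0.1, which gave 1; with 1 library left out it ran from 0 to 0. The lines share replicate numbers, but the labels do not say what a number marks. With the number as a replicate block shared by both lines the THZ1 count was 5011 and the DMSO count 3860, and with a block within each line 5382 and 4253. Deviations of same-numbered libraries correlated at 0.43 to 0.78 between groups. Of 88 named genes called, 59 kept the call in each of up to 19 alternatives, 29 lost it in at least 1, and none reversed. Depth limits the small nucleolar RNAs, most of which rest on a few reads; the other named genes are limited by having 2 libraries a group.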
